A study of Mus musculus with 6 samples.

Results

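The 40 interferon stimulated genes described here were taken by name from a list that uses no measured value as a criterion, although it was drawn up with earlier results of these data known, and all 40 were found among the 54532 mouse genes of the series. Of these, 34 are targets of type I interferon and 6 are GTPase genes of the response to interferon gamma. RNA was sequenced from bone marrow LSK cells, which carry Sca-1 and c-Kit but no markers of mature lineages, a gate that enriches for blood stem and early progenitor cells. There were 3 libraries labelled Phf6fl-R274X/Y (floxed) and 3 labelled Vav1-Cre; Phf6fl-R274X/Y (Vav1-Cre), all from male mice, in which the X-linked gene Phf6 has no second copy. The same floxed R274X allele was thus carried by both groups, and Vav1-Cre is a recombinase driven by a promoter active in blood cells. Because every Vav1-Cre library and no floxed library carried Cre, effects of the allele switch and of Cre itself cannot be told apart. The labels give no age and do not say whether the libraries came from separate animals, so the p-values reflect only how far these libraries differ from each other, possibly for technical reasons.

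Interferons are secreted antiviral signals. Type I interferons bind the receptor IFNAR1/IFNAR2 and act through a complex with STAT2 and IRF9, which binds the interferon stimulated response element (ISRE) in target promoters. Interferon gamma binds IFNGR1/IFNGR2 and acts at gamma activated sites (GAS), and it also induces IRF1, which binds ISRE-like elements. In blood stem and progenitor cells, interferon signalling is known to drive quiescent cells into cycle, and part of the target programme is active there without infection.

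Promoter sequences of 5 members are printed because they show the response element in genes that differed in behaviour: Ifit3, Isg15 and Igtp rose in the Vav1-Cre libraries, whereas Ifit1 and Irgm1 did not pass the test. Each is the 160 bases before the RefSeq gene start, read 5′ to 3′ on the gene's strand (build GRCm38.p6), and capitals mark every match to the ISRE core, searched as GAAA, any 2 bases and GAAA, or on the other strand TTTC, any 2 bases and TTTC. The windows are chr19:34583369-34583528 (plus strand) for Ifit3, chr19:34640729-34640888 (plus) for Ifit1, chr4:156200819-156200978 (minus) for Isg15, chr11:58199396-58199555 (plus) for Igtp and chr11:48871421-48871580 (minus) for Irgm1.
Ifit3: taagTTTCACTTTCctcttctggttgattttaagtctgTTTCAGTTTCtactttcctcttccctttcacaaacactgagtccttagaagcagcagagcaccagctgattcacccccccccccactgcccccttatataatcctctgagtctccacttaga
Ifit1: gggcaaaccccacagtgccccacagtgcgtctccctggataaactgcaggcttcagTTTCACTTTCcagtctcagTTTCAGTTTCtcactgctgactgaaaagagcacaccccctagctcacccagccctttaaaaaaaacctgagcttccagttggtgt
Isg15: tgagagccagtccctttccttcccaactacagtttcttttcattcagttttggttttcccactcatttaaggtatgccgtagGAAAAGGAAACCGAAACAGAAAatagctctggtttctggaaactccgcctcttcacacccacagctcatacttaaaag
Igtp: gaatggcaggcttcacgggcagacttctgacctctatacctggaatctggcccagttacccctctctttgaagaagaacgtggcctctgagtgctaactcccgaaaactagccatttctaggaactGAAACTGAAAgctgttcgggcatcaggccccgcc
Irgm1: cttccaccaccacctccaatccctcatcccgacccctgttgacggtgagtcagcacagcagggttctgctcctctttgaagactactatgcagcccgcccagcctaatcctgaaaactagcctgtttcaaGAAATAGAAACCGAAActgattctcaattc
Both Ifit promoters held 2 matches, TTTCACTTTC and TTTCAGTTTC, in the same order. Isg15 held 3 matches that overlap each other, Irgm1 held 2 that overlap, and Igtp held 1. Over the 250 bases before the start, 29 of the 40 members had a promoter in the RefSeq table, and 13 of the 29 (44.8%) held an ISRE core, against 936 of all 27025 genes of the table (3.46%). The core was found in 5 of 5 GTPase genes with a promoter (Gbp2, Gbp3, Gbp7, Irgm1 and Igtp) and in 8 of 24 type I targets (33.3%). Among members that rose it was found in 3 of the 4 with a promoter (Ifit3, Isg15 and Igtp) and not in Isg20. Ifi27l2a, Zbp1 and Mx1, which also rose, had no promoter in the table. Among those that did not pass the test the core was found in 10 of 25 (40%). The GAS pattern TTCNNNGAA, which reads the same on both strands and overlapped an ISRE match in none of the printed promoters, was found in 8 of 29 members (27.6%), against 8.13% of all genes, with Isg20 and Igtp among the members that rose. A match is a description of letters in this window and not a measured binding site.

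Total counts ran from 15406314 to 18106065 per library. Phf6, the gene named in the genotype labels, fell from 31.7, 29.5 and 33.5 CPM (read counts scaled to library size) in the floxed libraries to 8.46, 10.2 and 8.28 in the Vav1-Cre libraries. The log2 fold change was -1.81 (SE 0.123, adjusted p = 6.67e-06, edgeR's quasi-likelihood test). Of the genes that define the gate, Kit fell (log2 fold change -0.71, adjusted p = 0.00159) and Ly6a, which encodes Sca-1 and is itself inducible by interferon, rose (0.80, adjusted p = 5.83e-05). The libraries also held RNA of other cell types. The summed CPM of 11 B cell markers was 327 to 776 in the floxed and 1447 to 2935 in the Vav1-Cre libraries, with 7 of the 11 higher. For 12 macrophage and monocyte markers it was 759 to 1016 and 2220 to 3756, with 8 higher. For 9 plasmacytoid dendritic cell markers, of which 8 were tested, it was 457 to 526 and 656 to 791, with 6 higher and 1 lower. For 7 plasma cell markers it was 305 to 874 and 2034 to 4633, with 4 higher. For 9 neutrophil markers it was 17061 to 28736 and 12981 to 33956, ranges that overlap. For 8 erythroid markers it was 600 to 767 and 1042 to 1776, with 1 higher (Alas2). Over all genes tested, 10.1% were higher and 7.89% lower. No marker was at 0 in every library. Their part in the results on interferon targets was not tested, and in bulk RNA fewer cells of a type and less RNA per cell cannot be told apart.

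A minority of the interferon targets rose in the Vav1-Cre libraries and most did not pass the test. All 40 members passed the count filter, and 7 rose (Ifi27l2a, Ifit3, Zbp1, Isg20, Isg15, Mx1 and Igtp), by 1.25-fold to 2.07-fold. That is 17.5% of the members, against 10.1% of all 14608 genes tested that were higher and 17.9% called in either direction. None of the members fell in the main edgeR fit, against 7.89% of all genes. In that fit 3 had an unadjusted p under 0.05 and a negative log2 fold change (Oasl2, Adar and Dtx3l). Oasl2 was called lower by DESeq2 and by edgeR with no count filter, against 3.96% and 6.11% of all genes. Without Vav1-Cre replicate 3 edgeR called 4 members lower, against 9.39%, while limma-voom on all libraries called none, against 7.73%. The median log2 fold change of the 40 members was 0.03, with a range of -0.37 to 1.05, beside a median of -0.02 over all genes tested. In 10 members all 3 Vav1-Cre libraries were above all floxed ones (25.0%, against 18.9% of all genes), and in 4 they were all below (10%, against 18.3%). The 14 members without overlap are 35.0% of the list, against 37.2% of all genes. The remaining 26 members overlapped between the groups.

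**Figure D1:**
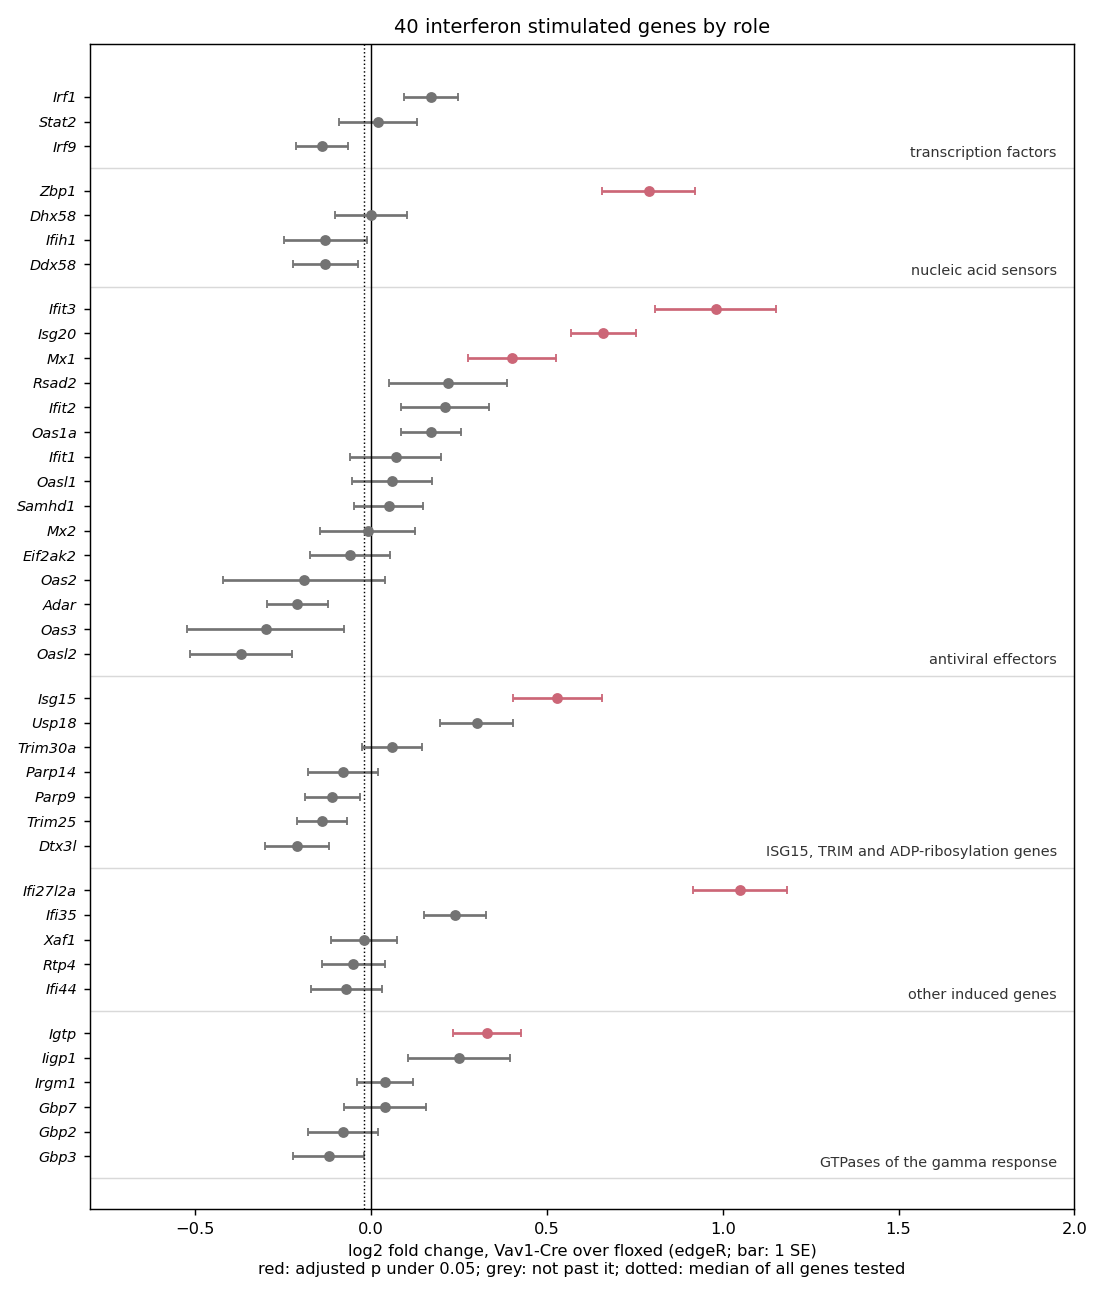
Log2 fold change of each of the 40 members, Vav1-Cre over floxed, with a bar of 1 SE (edgeR, 3 against 3 libraries), grouped by role; red points passed an adjusted p of 0.05 and the dotted line is the median of all genes tested, -0.02. The 7 red points lie between 0.33 and 1.05, while the members that did not pass lie between -0.37 and 0.30.

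Type I targets and GTPase genes gave similar summaries. Of the 34 type I targets 6 rose (17.6%, against 10.1% of all genes), their median log2 fold change was 0.01 and 17 were positive. Of the 6 GTPase genes 1 rose (16.7%, against the same 10.1%), their median was 0.04 and the range was -0.12 to 0.33. The summed CPM of the type I targets was 1718 to 1848 in the floxed and 1775 to 2045 in the Vav1-Cre libraries, and that of the GTPases was 234 to 272 and 246 to 284. Both pairs of ranges overlapped. The difference between the 2 classes was not tested, since the members were chosen by name and not sampled.

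The largest change among the members was in Ifi27l2a (ENSMUSG00000079017, GRCm38 chr12:103442167-103443680, minus strand), a small interferon-induced membrane protein gene of the IFI27 family. It had 71.1, 50.5 and 62.4 CPM in the floxed libraries and 144, 115 and 122 CPM in the Vav1-Cre libraries. Every Vav1-Cre library was above every floxed one, at a log2 fold change of 1.05 (SE 0.134, 2.07-fold, adjusted p = 0.00185). It was also the member with the highest level per length, at 132 ± 22.6 FPKM (reads scaled to gene length and library size; SD, n = 3) and 273 ± 32.2 FPKM. Its neighbour Ifi27 on the same chromosome, chosen for naming after its values were seen, moved the other way. Ifi27 had 235, 208 and 229 CPM in the floxed and 188, 158 and 177 CPM in the Vav1-Cre libraries and fell by 0.36 on the log2 scale (SE 0.0828, adjusted p = 0.0105). The call of Ifi27 was lost in 4 of 17 alternatives, without Vav1-Cre replicate 2 (adjusted p = 0.0595) and in the 3 limma fits on FPKM, in a range of 5.58e-05 to 0.0921. The ratio of Ifi27l2a to Ifi27 was 0.303, 0.242 and 0.272 in the floxed and 0.765, 0.726 and 0.688 in the Vav1-Cre libraries. These ratios are a description with no test, since the pair was chosen for its contrast.

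Among the antiviral effectors, 3 of 15 rose (20.0%, against 10.1% of all genes), with a median log2 fold change of 0.06. Ifit3 (ENSMUSG00000074896, chr19:34583531-34588731, plus strand) encodes an RNA-response protein that works in a complex with its IFIT relatives. It had 12.8, 10.1 and 9.09 CPM in the floxed and 22.3, 16.6 and 24.6 CPM in the Vav1-Cre libraries. The groups did not overlap, and the log2 fold change was 0.98 (SE 0.172, 1.98-fold, adjusted p = 0.00309). Ifit1, which recognises foreign RNA caps, had 14.5, 16.5 and 13.9 CPM against 16.1, 14.1 and 16.9 CPM. Its groups overlapped, at a log2 fold change of 0.07 (SE 0.129, adjusted p = 0.757), although its promoter, printed above, holds the same pair of ISRE matches as that of Ifit3. Ifit2 of the same gene cluster overlapped too, at 0.21 (SE 0.124, adjusted p = 0.261). The ratio of Ifit3 to Ifit1 was 0.884, 0.614 and 0.655 in the floxed and 1.39, 1.18 and 1.45 in the Vav1-Cre libraries, likewise a description with no test. Reads of Ifit3 and its near-identical copy Ifit3b may be split between them by the counting. Ifit3b itself had 3.97, 3.64 and 2.15 CPM against 4.39, 3.57 and 4.81 CPM and did not pass (0.39, adjusted p = 0.364).

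Isg20 (ENSMUSG00000039236, chr7:78913424-78920396, plus strand) encodes an exonuclease that degrades single-stranded RNA. Its values were 34.7, 36.6 and 31.9 CPM in the floxed libraries and 57.7, 49.4 and 55.9 CPM in the Vav1-Cre libraries. The groups were well apart, with the smallest SE of the 7 members that rose, at a log2 fold change of 0.66 (SE 0.0924, 1.58-fold, adjusted p = 0.000751). Mx1 (ENSMUSG00000000386, chr16:97447035-97462907, minus strand), a dynamin-like GTPase against influenza-type viruses, had 14.3, 16.9 and 18.1 CPM against 22.5, 19.7 and 23.2 CPM. The gap between Mx1 groups was small, at a log2 fold change of 0.40 (SE 0.125, adjusted p = 0.041), and the call was lost in 11 of 17 alternatives. Its neighbour Mx2 did not pass, at -0.01 on the log2 scale (SE 0.135, adjusted p = 0.958).

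The other effectors did not pass. Oasl2, a member of the 2′-5′ oligoadenylate synthetase family, had 95.2, 118 and 96.6 CPM in the floxed and 72.8, 70.1 and 97.4 CPM in the Vav1-Cre libraries. Replicates 1 and 2 of Vav1-Cre were below all floxed libraries and replicate 3 was among them (log2 fold change -0.37, SE 0.145, adjusted p = 0.126). In Oas2 and Oas3, which make the 2′-5′ oligoadenylates that activate RNase L, replicates 1 and 2 of Vav1-Cre were below all floxed libraries and replicate 3 was above them all. Oas2 had 41.2, 45.2 and 47.0 CPM against 30.1, 33.4 and 53.4 CPM (-0.19, adjusted p = 0.626), and Oas3 had 48.3, 48.6 and 39.7 CPM against 31.5, 29.7 and 50.1 CPM (-0.30, adjusted p = 0.426). Without Vav1-Cre replicate 3, 4 of the 40 members were lower (against 9.39% of all genes in that fit): Oasl2 (-0.53, adjusted p = 0.00197), Oas3 (-0.57, 0.00231), Oas2 (-0.48, 0.00421) and the RNA-editing enzyme gene Adar (-0.29, 0.0216). Over the 17 alternatives the adjusted p of these ran from 0.000125 to 0.346 for Oasl2, 0.00231 to 0.706 for Oas3, 0.00421 to 0.943 for Oas2 and 0.0216 to 0.342 for Adar. Oas1a, whose reads may be shared with the similar Oas1g, did not pass at 0.17 on the log2 scale (adjusted p = 0.20). Rsad2 (viperin) had 0.22, Oasl1 0.06, the nucleotide hydrolase gene Samhd1 0.05 and the double-stranded RNA kinase gene Eif2ak2 (PKR) -0.06, all with overlapping groups.

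Of the 4 nucleic acid sensors 1 rose (25.0%, against 10.1% of all genes). This was Zbp1 (ENSMUSG00000027514, chr2:173206612-173218923, minus strand), which binds Z-form nucleic acid and can trigger necroptosis. It had 23.7, 29.1 and 23.4 CPM in the floxed and 42.0, 37.5 and 52.0 CPM in the Vav1-Cre libraries. The groups lay well apart, at a log2 fold change of 0.79 (SE 0.132, 1.73-fold, adjusted p = 0.00268). The RNA sensors of the RIG-I family did not pass, with log2 fold changes of -0.13 for Ddx58 (RIG-I, adjusted p = 0.354), -0.13 for Ifih1 (MDA5, 0.473) and a value within 0.01 of 0 for Dhx58 (LGP2, 0.985).

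The list of ISG15, TRIM and ADP-ribosylation genes gave 1 call among 7 genes (14.3%, against 10.1% of all genes higher). Isg15 (ENSMUSG00000035692, chr4:156199424-156200818, minus strand) encodes a ubiquitin-like protein that is attached to other proteins. Its values were 48.9, 45.9 and 45.6 CPM in the floxed and 66.7, 54.7 and 81.4 CPM in the Vav1-Cre libraries. The floxed libraries were close together and the Vav1-Cre libraries spread out above them, at a log2 fold change of 0.53 (SE 0.126, 1.44-fold, adjusted p = 0.018). Usp18, the protease that removes ISG15 and damps type I signalling, had 28.1, 31.6 and 30.3 CPM against 39.4, 32.0 and 39.0 CPM. All its Vav1-Cre values were above the floxed ones, replicate 2 barely so, and it did not pass (0.30, SE 0.104, adjusted p = 0.0667). Without replicate 2 of Vav1-Cre it did, at 0.39 (adjusted p = 0.0409, in a range of 0.0409 to 0.235 over the alternatives). The ubiquitin ligase genes Trim25 and Dtx3l and the ADP-ribosylation gene Parp9 each had all Vav1-Cre values below all floxed ones, with log2 fold changes of -0.14, -0.21 and -0.11, and none passed. Dtx3l and Parp9 overlap on opposite strands, and the strand setting of the counting is unknown here. Parp14 (-0.08) and Trim30a (0.06) overlapped between the groups.

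**Figure D2:**
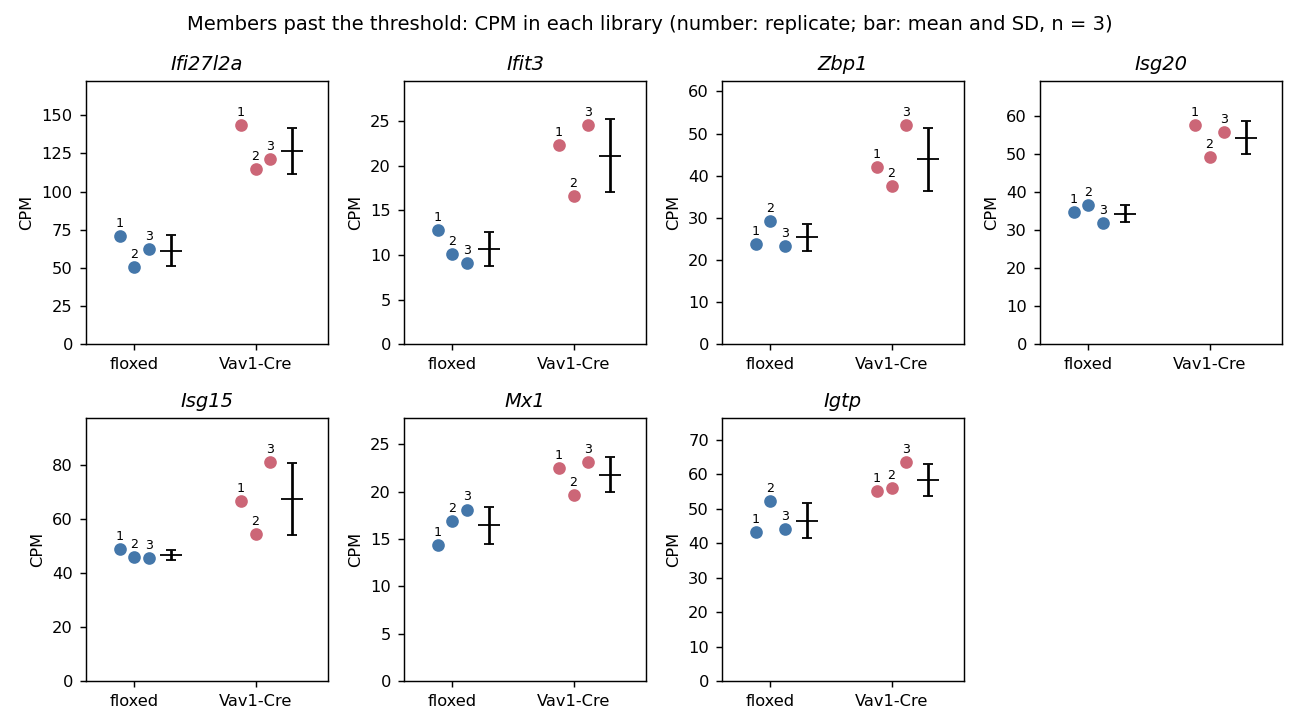
CPM of the 7 members that rose, in each of the 3 floxed and 3 Vav1-Cre libraries (numbers are replicates), with the mean and SD of each group beside them on axes that start at 0. In all 7 panels the lowest Vav1-Cre value is above the highest floxed value, by the smallest margins in Mx1 (18.1 and 19.7 CPM) and Igtp (52.3 and 55.3 CPM).

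The 3 transcription factors of the list did not pass. Stat2, the STAT of the type I complex, had 28.0, 36.5 and 30.9 CPM against 30.6, 32.0 and 33.9 CPM (log2 fold change 0.02, adjusted p = 0.93). Irf9, the DNA-binding part of that complex, had 118, 123 and 114 CPM against 107, 102 and 115 CPM (-0.14, adjusted p = 0.229); its gene overlaps Rnf31 on the same strand. Irf1, an activator induced by interferon gamma, had 195, 202 and 207 CPM against 227, 245 and 210 CPM. Its groups did not overlap but the change was small (0.17, SE 0.0765, adjusted p = 0.138), and of the 17 alternatives it passed only without Vav1-Cre replicate 3 (0.23, adjusted p = 0.0443, in a range of 0.0443 to 0.405). Of the other induced genes, Ifi35 had a log2 fold change of 0.24 without overlap (adjusted p = 0.0763), while Xaf1 (-0.02), Rtp4 (-0.05) and Ifi44 (-0.07) overlapped.

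GTPases of the gamma response guard against intracellular microbes by attacking the vacuoles that hold them. Igtp (Irgm3, ENSMUSG00000078853, chr11:58199556-58207591, plus strand) had 43.2, 52.3 and 44.2 CPM in the floxed and 55.3, 56.1 and 63.7 CPM in the Vav1-Cre libraries. It rose by a narrow margin, at a log2 fold change of 0.33 (SE 0.0963, 1.25-fold, adjusted p = 0.0344), and the call was lost in 10 of 17 alternatives. Igtp overlaps Irgm2 on the same strand, so reads of the shared stretch could fall to either, and Irgm2 did not pass (-0.20, adjusted p = 0.317). The other 5 overlapped between the groups. Iigp1 had 22.5, 27.5 and 19.8 CPM against 26.0, 24.4 and 32.8 CPM (0.25, adjusted p = 0.252). Irgm1, a regulator of the other immunity-related GTPases whose loss is known to exhaust blood stem cells, had 75.5, 80.9 and 70.1 CPM against 77.1, 73.4 and 82.2 CPM (0.04, adjusted p = 0.773). The guanylate-binding protein genes were close to even as well. Gbp2 had 45.8, 56.2 and 48.0 CPM against 50.1, 43.0 and 48.8 CPM (-0.08, adjusted p = 0.621). Gbp3 had 29.3, 30.5 and 30.5 CPM against 26.7, 25.5 and 30.9 CPM (-0.12, adjusted p = 0.444). Gbp7 had 22.1, 25.0 and 20.9 CPM against 20.8, 24.0 and 25.3 CPM (0.04, adjusted p = 0.824). Counts of guanylate-binding protein genes are uncertain where reads fit several of these similar copies.

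**Figure D3:**
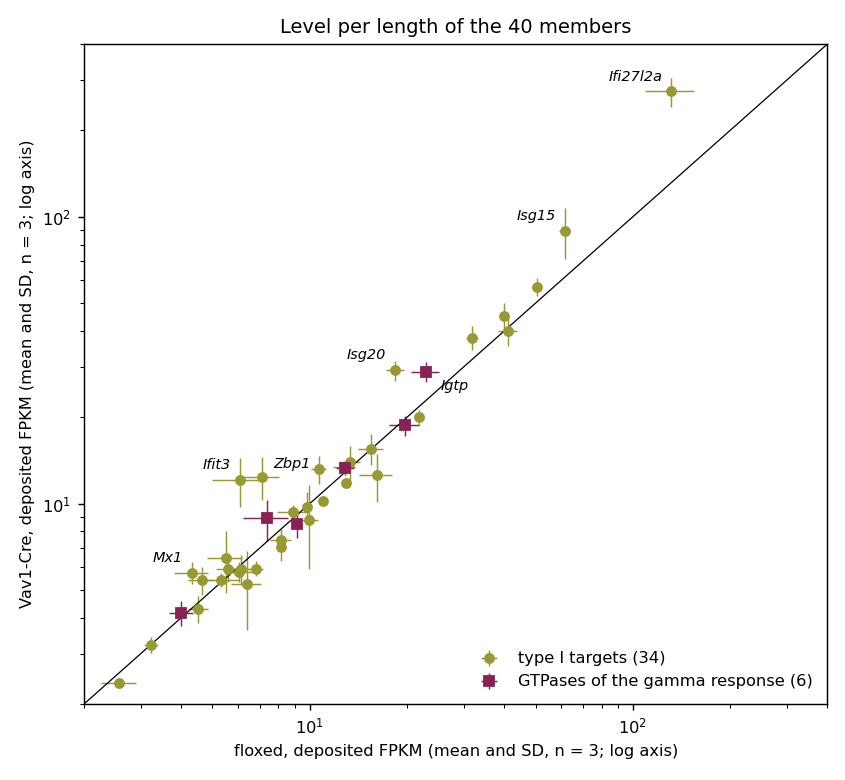
Deposited FPKM of each of the 40 members in the floxed libraries (x axis) and the Vav1-Cre libraries (y axis), means with SD, n = 3, on log axes; the line marks equal levels, circles are type I targets and squares are GTPases of the gamma response. Most members lie on or near the line, from Ifih1 at 2.58 FPKM to Rtp4 at 41.0 FPKM in the floxed libraries. The labelled members that rose lie above the line, as does Irf1 (50.3 and 57.1 FPKM), which did not pass the test.

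On the per-length scale the members spanned a wide range within these cells. In the floxed libraries the highest after Ifi27l2a were Isg15 at 61.5 ± 2.44 FPKM, Irf1 at 50.3 ± 1.64, Rtp4 at 41.0 ± 2.78 and Oas1a at 39.8 ± 1.1 FPKM (SD, n = 3). Rtp4 and Oas1a did not pass the test, and their CPM overlapped between the groups. The lowest were Mx2 at 3.24 ± 0.16 and Ifih1 at 2.58 ± 0.32 FPKM. Members that rose were found along the whole range, from Mx1 at 4.32 ± 0.515 FPKM to Ifi27l2a.

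Within a group the highest and lowest values of the members were concentrated in the same libraries. The same shares over all genes were not computed, so this is not shown to be particular to the members. Over all genes, Vav1-Cre replicate 3 also differed most from replicates 1 and 2 (chi-square per gene 32.7 and 43.64, against 15.49 between replicates 1 and 2). Vav1-Cre replicate 3 had the highest value of its group for 29 of the 40 members and replicate 2 had the lowest for 29, and floxed replicate 2 had the highest for 25 and replicate 3 the lowest for 25. Of the 7 members that rose, Vav1-Cre replicate 3 was the highest in 5 and replicate 2 the lowest in 6. Vav1-Cre replicate 3 also had the highest summed CPM of neutrophil markers (33956, against 19789 and 12981 in replicates 1 and 2). It had the lowest sums of its group for B cell markers (1447, against 2935 and 2869) and for macrophage and monocyte markers (2220, against 3756 and 3001). The part of these markers in the spread of the members was not tested. Without Vav1-Cre replicate 3, 6 members were higher and 4 lower, against 12.5% and 9.39% of all genes. Without floxed replicate 1 or without Vav1-Cre replicate 1, 4 were higher (Ifi27l2a, Ifit3, Isg20 and Zbp1), against 5.61% and 4.73% of all genes. Isg20 and Ifi27l2a kept their calls in all 17 alternatives, with the highest adjusted p at 0.0285 and 0.0357. Zbp1 and Ifit3 lost theirs in 1 each, limma on the deposited FPKM without a filter on low values (0.0528 and 0.0547). Isg15 lost its call in 7, among them leaving out floxed replicate 1, 2 or 3 or Vav1-Cre replicate 1, with a highest adjusted p of 0.118. Mx1 lost its call without floxed replicate 1 or 2 or any single Vav1-Cre library, and Igtp without floxed replicate 1 or 3 or any single Vav1-Cre library.

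**Figure D4:**
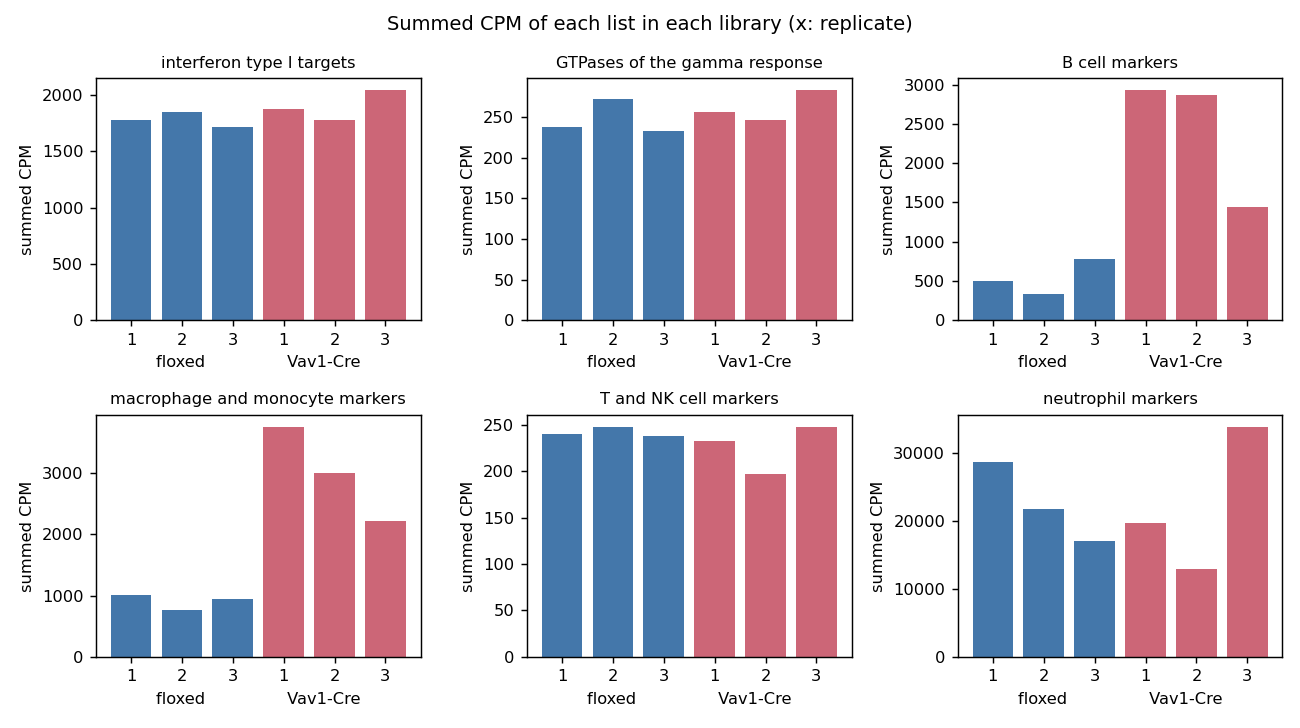
Summed CPM of the type I targets, the GTPases of the gamma response and 4 marker lists in each library (bars, from 0; floxed replicates 1 to 3, then Vav1-Cre replicates 1 to 3). The type I targets and GTPases overlap between the groups, B cell markers and macrophage and monocyte markers do not (327 to 776 against 1447 to 2935, and 759 to 1016 against 2220 to 3756 CPM), and neutrophil markers overlap widely.

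The ligands that induce these genes were close to the floor. Of 21 interferon genes, Ifng, which encodes interferon gamma, was the gene with enough counts to be tested. It had 3, 11 and 4 counts in the floxed and 43, 26 and 27 in the Vav1-Cre libraries, or 0.159, 0.589 and 0.215 CPM against 2.78, 1.72 and 1.8 CPM. Ifng rose by a log2 fold change of 2.69 (SE 0.512, 6.43-fold, adjusted p = 0.00417), with no overlap. Floxed replicate 2 held most of the floxed counts, and without it the log2 fold change was 3.42. The call held in all 16 alternatives that tested the gene, with log2 fold changes of 1.07 (limma on FPKM plus 1) to 3.42 and adjusted p of 7.76e-06 to 0.0387. Of 12 T and NK cell markers, the cells best known for making interferon gamma, 8 rose (66.7%) and Nkg7 fell. Over all genes the shares were 10.1% higher and 7.89% lower. The summed CPM of the 12 markers was 238 to 247 in the floxed and 197 to 248 in the Vav1-Cre libraries. Nkg7 made up most of the floxed sum, and without it, a choice made after the values were seen, the other 11 summed to 92.9, 82.1 and 97.4 CPM against 144, 122 and 146 CPM. Lck, which did not pass, made up most of that floxed sum. Without Lck as well, likewise chosen after the values were seen, the other 10 markers summed to 37.0, 35.5 and 37.3 CPM against 81.7, 62.5 and 84.9 CPM. Their part in the change of Ifng was not tested. The other 20 ligands, interferon beta and the alpha and lambda interferons among them, had at most 4 counts in any library, and 15 had 0 counts in all 6, where 3 counts is the limit a count of 0 allows. Differences in these ligands were not detectable at this depth.

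Of 9 receptors and kinases 1 was higher (11.1%, against 10.1% of all genes). This was Ifngr2, the signalling chain of the gamma receptor, at 29.0, 27.2 and 26.1 CPM against 42.0, 39.7 and 29.3 CPM (log2 fold change 0.43, SE 0.127, adjusted p = 0.035). Vav1-Cre replicate 3 was barely above the floxed libraries, and the call was lost in 9 of 17 alternatives. Ifngr1 (-0.08), Ifnar1 (-0.02) and Ifnar2 (0.08) overlapped between the groups, and the kinase genes Jak1 (-0.25, adjusted p = 0.0514) and Jak2 (-0.17, adjusted p = 0.17) did not pass although all their Vav1-Cre values were below the floxed ones. Jak1 was called lower in 6 of 17 alternatives, among them without floxed replicate 3 (-0.32, adjusted p = 0.0336) and without Vav1-Cre replicate 3 (-0.29, adjusted p = 0.0214), in a range of 0.0126 to 0.191.

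Among the other IRF factors, Irf7, the amplifier of type I interferon production, had 99.3, 105 and 83.5 CPM in the floxed and 129, 115 and 156 CPM in the Vav1-Cre libraries. Its groups did not overlap and the gap was narrow (log2 fold change 0.48, SE 0.12, adjusted p = 0.0249), and the call was lost in 7 of 17 alternatives. Irf5 (0.57, adjusted p = 0.00237) and Irf8 (0.63, adjusted p = 0.00349), factors of myeloid and B cells, and Irf4 (2.55, adjusted p = 0.0208), a factor of plasma cells, rose too. The call of Irf4 was lost in 3 alternatives and that of Irf8 in 1. Irf4 and Irf8 are also on the lists of plasma cell and plasmacytoid dendritic cell markers, whose sums are given above.

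Of 9 negative regulators 2 fell and 0 rose, against 7.89% and 10.1% of all genes. Their median log2 fold change was -0.07. Socs3, a feedback inhibitor of JAK kinases, had 71.3, 66.5 and 84.8 CPM against 50.6, 39.2 and 39.1 CPM (-0.79, SE 0.122, adjusted p = 0.00223). All Vav1-Cre values were below all floxed ones. Irf2bp1, a corepressor that partners IRF2, fell by 0.24 on the log2 scale (adjusted p = 0.0298), a call lost in 5 alternatives. Socs1, the main inhibitor of interferon gamma signalling, had 6.66, 10.9 and 9.84 CPM against 11.8, 8.06 and 9.69 CPM (0.11, adjusted p = 0.754).

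Genes of nucleic acid sensing moved both ways, with 2 of 13 higher (15.4%) and 3 lower, against 10.1% and 7.89% of all genes. The endosomal RNA receptor gene Tlr7 rose from 21.7, 18.4 and 21.1 CPM to 33.3, 32.2 and 30.5 CPM (0.65, SE 0.104, adjusted p = 0.00159). Unc93b1, which escorts such receptors to endosomes, rose from 203, 187 and 197 CPM to 314, 320 and 272 CPM (0.63, SE 0.0812, adjusted p = 0.000488). Both calls held in all 17 alternatives. Ikbke, a kinase that activates IRF3 and IRF7, fell by 0.71 on the log2 scale (adjusted p = 0.0021), the adaptor gene Traf3 by 0.35 (adjusted p = 0.0388) and the cytosolic DNA sensor gene Cgas by 0.43 (adjusted p = 0.0427). The calls of Ikbke, Traf3 and Cgas were lost in 1, 8 and 9 of 17 alternatives.

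Further GTPases of the gamma response were tested for 11 of 13 genes. Of these, 3 rose (27.3%) and 1 fell, against 10.1% and 7.89% of all genes. Gbp4 rose from 4.97, 5.09 and 5.43 CPM to 12.5, 11.6 and 13.2 CPM (1.27, SE 0.159, 2.40-fold, adjusted p = 0.000401), and the call held in all 17 alternatives. Gbp8 (0.73, adjusted p = 0.0247) and Gbp9 (0.74, adjusted p = 0.014) rose too, and their calls were lost in 7 and 5 alternatives. All 3 lie in the same cluster on chromosome 5, share similar sequence and overlap each other on the same strand. Reads of the shared stretch could fall to any of them, so the counts of Gbp4, Gbp8 and Gbp9 are uncertain. The immunity-related GTPase gene Tgtp1 fell by 0.48 on the log2 scale (adjusted p = 0.0125), a call lost in 4 alternatives. Among 56 tested further type I targets, 10 rose (17.9%) and 3 fell, against 10.1% and 7.89% of all genes. Their median log2 fold change was 0.00. The rises with the smallest p were Ifi211 (1.19, adjusted p = 0.000833) and Ifi204 (0.96, adjusted p = 0.00153), DNA-binding proteins of the IFI200 family, the tetherin gene Bst2 (0.59, adjusted p = 0.00101), which is also a plasmacytoid dendritic cell marker, and Ube2l6, the conjugating enzyme for ISG15 (0.46, adjusted p = 0.00185).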

How the data were processed

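RNA from bone marrow LSK cells was sequenced in 6 libraries, 3 floxed and 3 Vav1-Cre, grouped by the genotype in the labels; replicate numbers follow accession order and pair nothing. For 54532 Ensembl genes the files hold, per the file headers, read counts as whole numbers and FPKM, both made by the authors. The counts are raw, since their totals differ between libraries (15406314 to 18106065). The deposited FPKM values are already scaled between libraries by factors equal to median-ratio size factors. Per the submitters' processing notes, Bowtie and mm8 were used, but identifiers and implied lengths match GENCODE M21 (GRCm38), whose coordinates are used. Counting tool and strandedness: not given in the sources used here. No 2 replicates agreed within sampling noise (chi-square per gene at least 11.15).

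Counts were tested with edgeR 4.0.16 (R 4.3.3; TMM, filterByExpr with a minimum count of 10, quasi-likelihood, robust) and Benjamini-Hochberg adjustment over all 14608 genes tested, at an adjusted p of 0.05. CPM uses TMM-scaled library sizes. Members and lists were chosen with earlier results of these data known, so counts over lists are descriptions, and no list test was made. All members could be named, as could the 4 genes with the smallest p of each pathway list, Irf7, the receptor genes Ifnar1, Ifnar2, Ifngr1 and Ifngr2, and the checks; other genes are said to be chosen after their values were seen, and Cgas, Socs1, Irgm2, Ifit3b, Nkg7 and Alas2 were named for comparison or to complete a count. Of 239 listed genes, 238 were found; some are not reported here. The 17 alternatives were RLE and upper-quartile scaling, TMM without immunoglobulin genes, a mean count of 50 or more, no count filter, DESeq2 1.42.0, limma-voom (limma 3.58.1), limma on log2 of FPKM with pseudocounts of 1 and 0.1 (mean FPKM of at least 0.5) and of 1 without that filter, leaving out each library, and the robust option off. The last was added after the data were seen, because counts simulated with the gene-wise dispersions of these libraries gave more false calls than nominal, so the threshold may be liberal. Promoters come from RefSeq (GRCm38.p6).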

Additional observations from a re-analysis of the deposited data

How the results depend on the processing

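No paired analysis was possible because the labels give no replicate numbers that the 2 groups share. Over 17 alternatives no called result changed direction. Phf6 was past the threshold in all of them, with log2 fold changes of -1.91 to -1.27. The count of members higher was 7 in the main edgeR fit, against 10.1% of all genes. With limma on FPKM it was 4 with FPKM plus 1, 4 with FPKM plus 0.1 and 2 with FPKM plus 1 and no filter. In those fits 7.22%, 7.02% and 1.73% of all genes were higher. The count was 4 to 6 when 1 library was left out, against 4.56% to 12.5% of all genes. It was 5 with upper-quartile scaling and with the robust option off, against 8.32% and 9.47%. The count of members lower was 0 in the main edgeR fit, against 7.89% of all genes. It was 1 (Oasl2) with no count filter (-0.39, adjusted p = 0.000125) and with DESeq2 (-0.36, adjusted p = 0.0408), against 6.11% and 3.96%. When 1 library was left out it was 0 to 4, against 3.37% to 9.39%. The median log2 fold change ran from -0.06 to 0.06 for the type I targets and from -0.02 to 0.09 for the GTPases. Members called in neither fit changed sign in 0 to 6 cases per alternative. Over all genes, 2621 were called in the main edgeR fit and 660 to 3295 under the alternatives. Fits without a library leave 2 samples in 1 group and pool the spread. Why the counts differ was not tested. With 3 libraries a group, changes under the size of the replicate spread were not detectable, and the low counts of the interferon ligands limit them to Ifng.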

Other observations

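The IFI200 family holds DNA-binding interferon targets in a cluster on chromosome 1, and it was looked at as a whole, by gene name, after values of some of its genes were seen. Of 12 genes tested, 8 rose and 1 fell, against 10.1% and 7.89% of all genes. The genes that rose were Ifi209 (log2 fold change 1.08, SE 0.124, adjusted p = 0.000344, edgeR), Ifi211 (1.19), Ifi204 (0.96), Ifi214 (1.89), Ifi207 (1.08), Ifi206 (0.54), Ifi205 (0.87) and Ifi213 (0.48). Ifi211 went from 5.55, 5.41 and 6.83 CPM in the floxed libraries to 15.2, 11.8 and 13.5 CPM in the Vav1-Cre libraries, and Ifi204 from 8.09, 9.31 and 8.33 CPM to 18.8, 13.7 and 17.5 CPM. In both genes the groups did not overlap. Ifi203, at 31.0 FPKM per length in the floxed libraries, had 208, 207 and 213 CPM against 157, 178 and 184 CPM and fell by 0.28 on the log2 scale (SE 0.077, adjusted p = 0.0269). The other 3 did not pass: Ifi208 (0.71, adjusted p = 0.0618), Aim2, a sensor of cytosolic DNA (-0.20, adjusted p = 0.146), and Mndal (0.07, adjusted p = 0.574). The calls of Ifi209, Ifi211 and Ifi204 held in all 17 alternatives. Those of Ifi207, Ifi205, Ifi206, Ifi213 and Ifi203 were lost in 1, 4, 5, 10 and 8 of 17, and that of Ifi214 in 1 of the 14 that tested it. These genes are similar in sequence, so reads may be divided between them by the counting.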
